A study of Mus musculus with 4 samples.

Results

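The 39 HOX genes of the mouse were examined in the anterior and posterior lobes of the postnatal day 7 (PN7) cerebellum through 57 probes, which are all the probes on the chip whose gene symbol is HOX, a cluster letter from A to D and a number. They stood among 45281 probes of 30854 gene symbols. Total RNA came from untreated mice of the Swiss strain, and the chip was the Illumina MouseWG-6 v2.0 bead array, with 2 arrays for the anterior lobes and 2 for the posterior lobes. The animals carried no stated transgene or mutation, and the labels give neither the number of mice behind a sample nor their sex. The labels do not say that replicates came from separate animals, so the p-values measure the spread between these samples, which may be technical. The study compared the lobes in its search for genes that might lie downstream of Tlx3, a homeobox gene of the posterior lobes.

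HOX genes encode homeodomain transcription factors that give cells their position along the head to tail axis. They lie in 4 clusters, A to D, and genes at the same place in different clusters form a paralogue group, numbered from 1 at the 3′ end to 13 at the 5′ end. Low-numbered genes are expressed as far forward as the hindbrain, and high-numbered genes towards the tail. The cerebellum grows from rhombomere 1, which lies in front of the HOX expression domain, whereas the brainstem beneath it and the precerebellar nuclei come from HOX-expressing segments. HOX proteins bind DNA together with homeodomain cofactors of the TALE class, the PBX, MEIS and PKNOX proteins. Polycomb proteins keep silent HOX genes silent, and Trithorax proteins keep active ones active.

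On these arrays the HOX genes lay mostly within the range of the negative controls, in both lobes. Of the 57 probes, 51 (89.5%) were detected on no array, against 49.4% of all probes on the chip, and 2 (3.51%) were detected on all 4 arrays, against 44% of the chip. The 2 were a Hoxa4 probe and a Hoxa13 probe. Of 181 probes of homeobox genes outside the HOX clusters, 68.5% were detected on no array and 23.8% on all 4 arrays. No HOX gene passed either test of a difference between the lobes. All 9 of 9 cofactor genes of the HOX proteins had a probe detected on all 4 arrays, against 46.8% of all symbols on the chip.

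The promoters of 3 HOX genes are given here from RefSeq on GRCm38.p6, 250 bases before to 50 bases after the gene start. Those of Hoxb1 and Hoxa2 are shown because these genes pattern the hindbrain and because the window holds the letters TGATNNAT on one of its strands. These letters are a form of the site that HOX and PBX proteins bind together. No probe of either gene was detected, while probes of PBX genes were. Capitals mark the motif. The Hoxa13 promoter is shown because Hoxa13 has the only HOX probe well above the limit of detection, and its capitals mark the CG dinucleotides.
Hoxb1, chr11:96365508-96365807, plus strand: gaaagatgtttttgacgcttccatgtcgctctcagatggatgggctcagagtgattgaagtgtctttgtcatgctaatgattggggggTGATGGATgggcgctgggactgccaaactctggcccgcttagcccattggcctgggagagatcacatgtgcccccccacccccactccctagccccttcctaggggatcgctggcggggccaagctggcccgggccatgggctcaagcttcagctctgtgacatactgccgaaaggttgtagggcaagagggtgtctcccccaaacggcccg
Hoxa2, chr6:52164782-52165081, minus strand: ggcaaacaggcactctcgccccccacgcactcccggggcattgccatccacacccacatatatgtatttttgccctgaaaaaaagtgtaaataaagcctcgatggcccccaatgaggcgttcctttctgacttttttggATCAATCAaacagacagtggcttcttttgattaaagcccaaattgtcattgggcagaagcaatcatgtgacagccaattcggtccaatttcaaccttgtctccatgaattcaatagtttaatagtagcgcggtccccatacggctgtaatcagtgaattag
Hoxa13, chr6:52260831-52261130, minus strand: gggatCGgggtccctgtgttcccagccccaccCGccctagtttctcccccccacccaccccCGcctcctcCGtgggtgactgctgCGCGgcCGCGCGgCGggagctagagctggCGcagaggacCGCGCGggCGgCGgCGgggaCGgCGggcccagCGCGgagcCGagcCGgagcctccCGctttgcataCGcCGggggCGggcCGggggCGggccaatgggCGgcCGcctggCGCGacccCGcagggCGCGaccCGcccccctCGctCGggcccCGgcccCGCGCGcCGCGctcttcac

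RefSeq promoters were found for 22 of the 39 genes, 24 promoters in all. The motif, searched on both strands with overlaps allowed, was in 4 of the 24 (16.7%), at Hoxb1, Hoxa2, Hoxb8 and one promoter of Hoxd11, against 8.85% of 32851 promoters of the same length. The HOX promoters held a median of 14.5 CG dinucleotides, from 4 to 45, against a median of 7 over all promoters. Hoxa13 had the 45. At least 20 CG dinucleotides stood in 11 of the 24 (45.8%), against 26.5% of all promoters. These are counts of letters in a window and say nothing of binding or methylation in these samples.

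The detection score of a probe is 1 minus the share of negative control probes that were at least as bright on the same array. A probe was called detected at a score over 0.95, a limit that about 5% of the negative controls pass by construction. On the array of anterior replicate 1, 4 HOX probes (7.02%) were detected, against 47.4% of all probes. On that of anterior replicate 2, 6 (10.5%) were detected, against 47.6%. On that of posterior replicate 1, 2 (3.51%) were detected, against 46.5%, and on that of posterior replicate 2, 6 (10.5%), against 47%. The mean was 5 ± 1.41 probes in anterior and 4 ± 2.83 in posterior lobes (SD, n = 2), with p = 1 in an exact two-sided permutation test, which cannot go below 0.33 with 2 arrays against 2. The counts of the lobes overlapped, and in each lobe the replicate 2 array had the higher count.

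Over the 4 arrays, 18 of 228 HOX scores (7.89%) were over the limit. The median HOX score was 0.625 and 0.525 on the anterior arrays and 0.600 and 0.621 on the posterior arrays, while the median of all probes lay between 0.912 and 0.928. At the stricter score of 0.99, 1 HOX probe remained on each array, and it was the Hoxa13 probe.

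**Figure D1:**
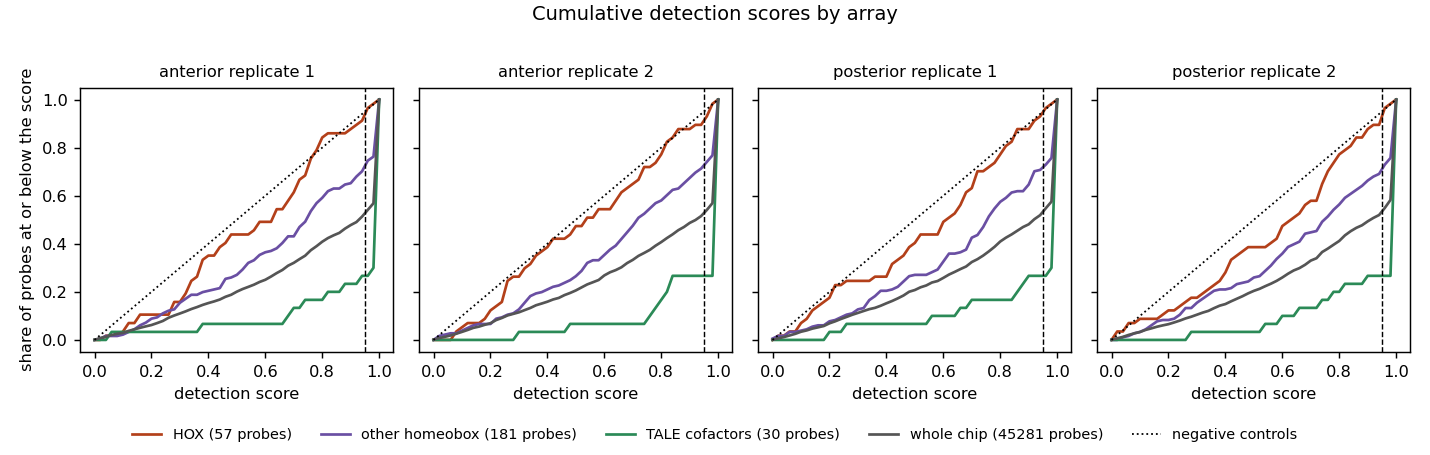
Share of probes (vertical axis) at or below each detection score (horizontal axis) on the 4 arrays, for the 57 HOX probes, 181 probes of other homeobox genes, 30 probes of TALE cofactors and all 45281 probes. The dotted diagonal is where negative controls lie by definition and the dashed line is the limit of 0.95: over most of its length the HOX curve is the nearest to the diagonal on each array.

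The paralogue groups were read in 3 bands. Groups 1 to 3 pattern the hindbrain itself, and none of their 16 probes, from 8 genes, was detected on any array. The same was true of groups 5, 6, 7, 9 and 12. Of the 16 probes of groups 4 to 8, which act in the caudal hindbrain and the cervical and thoracic cord, 1 was detected on all 4 arrays and 1 on some. Of the 25 probes of groups 9 to 13, whose domains lie in the trunk, limbs and tail, 1 was detected on all 4 arrays and 3 on some. The median scores of the 3 bands were 0.548, 0.612 and 0.611.

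**Figure D2:**
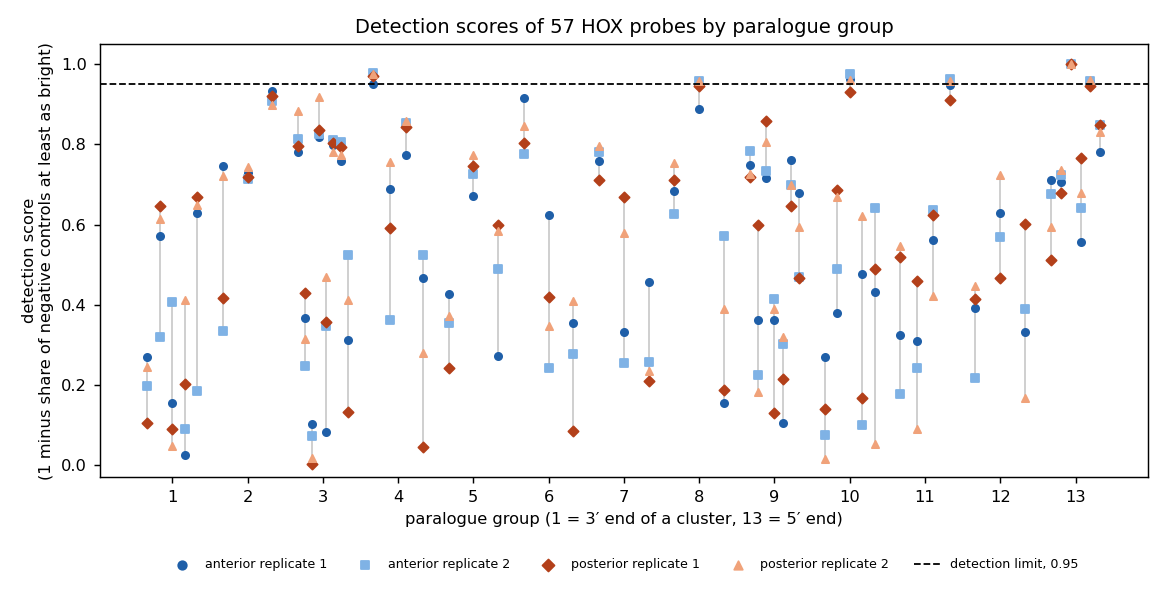
Detection score (vertical axis) of each of the 57 HOX probes on the 4 arrays, by paralogue group (horizontal axis), where a grey line joins the 4 scores of a probe. The dashed line is the limit of 0.95: 6 probes cross or pass it, in groups 4, 8, 10, 11 and 13, and none in groups 1 to 3.

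Group 1 includes Hoxb1, which specifies rhombomere 4, and Hoxd1. The scores of its 5 probes ran from 0.027 to 0.668, with a median of 0.257, the lowest of the 13 groups. The intensities of the first Hoxb1 probe (ILMN_1240198) were 64.9 and 65.2 in the anterior and 61.1 and 59.0 in the posterior lobes. Those of the second (ILMN_2818750) were 59.5 and 57.5 in the anterior and 64.4 and 69.6 in the posterior lobes. The probes placed the lobes in opposite order, and all 8 values lay below the limit of detection, which was an intensity of 139.8 and 116.9 on the anterior arrays and 134.2 and 134.4 on the posterior arrays.

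Group 2 is the group with the most forward limit, since Hoxa2 is expressed up to the border of rhombomere 1. Hoxa2 had intensities of 92.1, 63.6, 69.7 and 86.1 with one probe (ILMN_2618302) and 90.2, 78.7, 84.4 and 91.0 with the other (ILMN_2874270), in the order anterior replicates 1 and 2 and posterior replicates 1 and 2. The lobes overlapped with both probes. Hoxb2 (ILMN_2598083), which acts in rhombomeres 3 to 5, had 130.6, 107.4, 122.3 and 121.2 in the same order, with scores of 0.933, 0.907, 0.920 and 0.897. Among the probes detected on no array it had the highest single score, although on posterior replicate 2 a Hoxb3 probe (ILMN_1232276) scored higher, at 0.919. The values of Hoxb1, Hoxa2 and Hoxb2 are given for their place in the hindbrain and were chosen after they had been seen.

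The 8 probes of group 3, of Hoxa3, Hoxb3 and Hoxd3, had scores from 0.0021 to 0.919. Of the 4 probes of Hoxb3, 3 had scores from 0.757 to 0.919 and the other (ILMN_2450689) from 0.082 to 0.470, and all missed the limit on every array.

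Among groups 4 to 8, Hoxa4, which marks the caudal hindbrain from the border of rhombomeres 6 and 7 on, had the probe detected on all 4 arrays (ILMN_2755860). Its intensities were 140.0 and 132.5 in the anterior and 146.7 and 154.3 in the posterior lobes, with scores of 0.951, 0.977, 0.970 and 0.974. Both posterior values were above both anterior values before normalization. After quantile normalization its log2 signal was 7.03 and 7.20 in the anterior and 7.19 and 7.25 in the posterior lobes, and the lobes overlapped. Its paralogues Hoxb4, Hoxc4 and Hoxd4 were not detected on any array. Nor were Hoxa5, Hoxb5 and Hoxc5, of which Hoxa5 and Hoxc5 maintain phrenic motor neurons, or any gene of group 6 or 7.

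In group 8 the probe of Hoxc8, a gene of the brachial cord (ILMN_2671465), had scores from 0.889 to 0.957 and was detected on the replicate 2 array of each lobe. Hoxb8 and Hoxd8 were not detected. In group 9, whose gene Hoxc9 marks the thoracic cord, none of the 7 probes was detected, and the highest score was 0.859.

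In group 10, 1 of 2 probes of Hoxc10, a gene of lumbar motor neurons (ILMN_2836885), had scores from 0.931 to 0.974 and missed the limit on the array of posterior replicate 1. The other Hoxc10 probe (ILMN_2836888) had a score of at most 0.621. In group 11 the probe of Hoxd11, which shapes the forearm and the kidney together with Hoxa11 (ILMN_1231215), had scores from 0.909 to 0.963 and was detected on the replicate 2 array of each lobe. Hoxa10, Hoxd10, Hoxa11, Hoxc11, Hoxc12 and Hoxd12 were not detected.

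Group 13 holds the genes of the digits and the end of the body axis. One Hoxa13 probe (ILMN_3087004) had intensities of 312.3 and 272.4 in the anterior and 300.3 and 325.4 in the posterior lobes, with a score of 1 on every array. No negative control was as bright, and these intensities overlapped between the lobes. After quantile normalization they did not, with log2 signals of 8.15 and 8.22 in the anterior and 8.25 and 8.35 in the posterior lobes. The other Hoxa13 probes were not detected. One (ILMN_1237317) had intensities of 87.9, 75.5, 72.9 and 76.6, and the other (ILMN_3015589) 87.1, 79.9, 80.3 and 89.7, in the order anterior replicates 1 and 2 and posterior replicates 1 and 2. Thus 1 of 3 probes called the gene present on all arrays and the other 2 did not on any. The transcript stretch that each probe matches was not examined, since no probe sequences were used here. Hoxc13, a gene of hair and nails (ILMN_2628366), had scores from 0.946 to 0.959 and missed the limit on the array of posterior replicate 1. Hoxb13 and Hoxd13 were not detected.

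**Figure D3:**
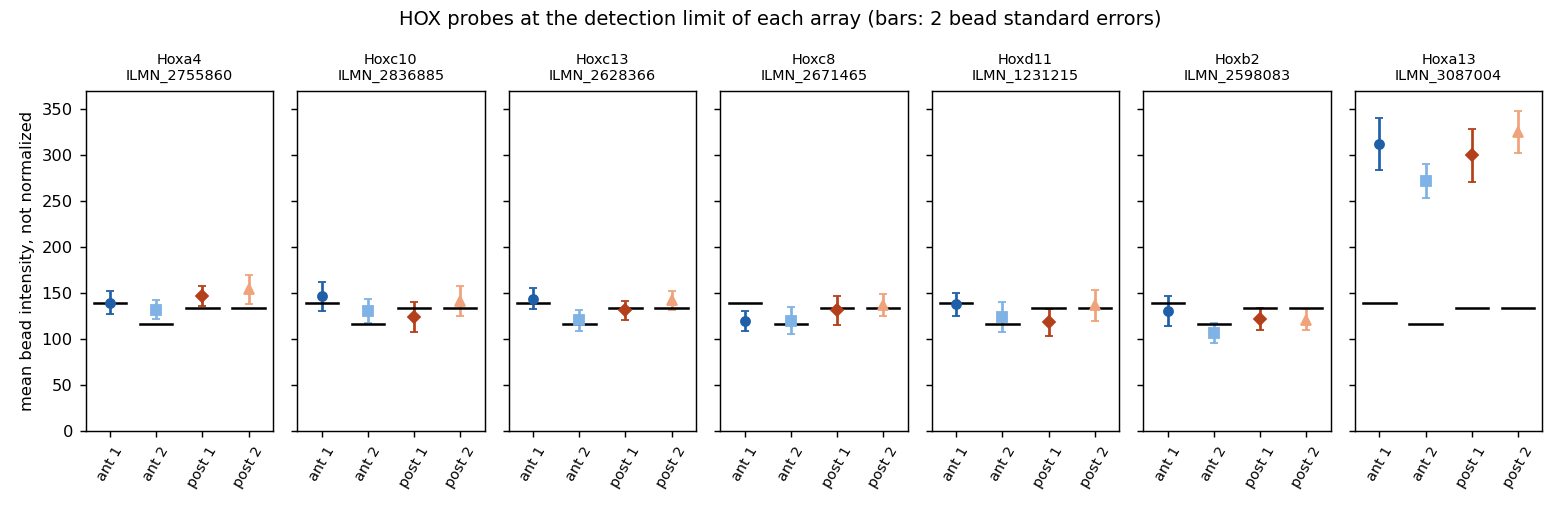
Mean bead intensity (vertical axis, not normalized) on the 4 arrays of the 6 HOX probes detected on any array and of Hoxb2, the highest-scoring of the others, with bars of 2 standard errors over the beads. Black marks are the lowest intensity called detected on each array: Hoxa13 lies far above them and the other probes lie close to them.

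The beads of a probe on an array give a measure of how well the limit was resolved. For the 5 probes other than Hoxa13 that were detected on 2 to 4 arrays, 14 of 20 intensities lay within 2 bead standard errors of the limit and 12 within 1. Their distance from it ran from -3.77 to 2.92 standard errors. The Hoxa13 probe lay 11.6 to 17.0 standard errors above the limit. The bead error covers one array only and not the spread between samples.

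By cluster, the A cluster held both probes detected on all 4 arrays among 20 probes of 11 genes. In the B cluster none of 15 probes of 10 genes was detected on any array. The C cluster had 3 of 11 probes detected on some arrays, and the D cluster 1 of 11. In all, 33 of the 39 HOX genes (84.6%) had no detected probe, against 14462 of the 30854 symbols on the chip. Several probes stood for 13 of the genes, 31 probes together, and the rest had 1.

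No HOX probe was detected on both arrays of one lobe and on neither array of the other. Over the whole chip, 0.214% of the probes were detected in this way in posterior lobes only and 0.651% in anterior lobes only. Tlx3, once named Hox11L2, is a homeobox gene outside the 4 clusters and no member here. Its probe (ILMN_1217773) was among the posterior-only ones.

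The lobes were compared over the 21726 probes detected on at least 2 of the 4 arrays, 48% of the chip. Only 6 of the 57 HOX probes (10.5%) were among them. These differed little between the lobes, posterior minus anterior. The Hoxa4 signal was 7.11 ± 0.12 in anterior and 7.22 ± 0.04 in posterior lobes (log2, SD, n = 2), a difference of 0.11 with a standard error of 0.11 and an adjusted p of 0.76 (limma, Benjamini-Hochberg over all tested probes). The Hoxa13 signal was 8.19 ± 0.05 and 8.30 ± 0.07, a difference of 0.12 with a standard error of 0.12 and an adjusted p of 0.77 by limma. The 95% interval of the difference ran from -0.15 to 0.37 for Hoxa4 and from -0.17 to 0.41 for Hoxa13. These intervals hold 0 and also differences beyond the 1.2-fold of the study's criterion.

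The log2 differences of the other 4 were 0.12 for Hoxc8, 0.02 for Hoxc13, -0.08 for Hoxd11 and -0.10 for Hoxc10, and their adjusted p by limma lay between 0.75 and 0.97. Thus 3 of the 6 probes had the higher mean in posterior lobes by more than 0.1, and Hoxc10 and Hoxd11 had the lower mean. None of the 6 passed an adjusted p under 0.05, against 0.106% of all tested probes. None passed by limma the criterion given in the study's methods, a fold over 1.2 with an unadjusted p under 0.05. Of all tested probes 8.29% did by limma (3.3% higher and 5% lower in posterior lobes), a test other than the study's own. None had an unadjusted p under 0.05 by limma, against 10.1%, and none passed the criterion by the methods' t-test, against 3.41%. That test passed 0% of the chip at the adjusted p, so it could call no HOX probe there. The median difference of the 6 was 0.06, and that of all tested probes was 0.0023.

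**Figure D4:**
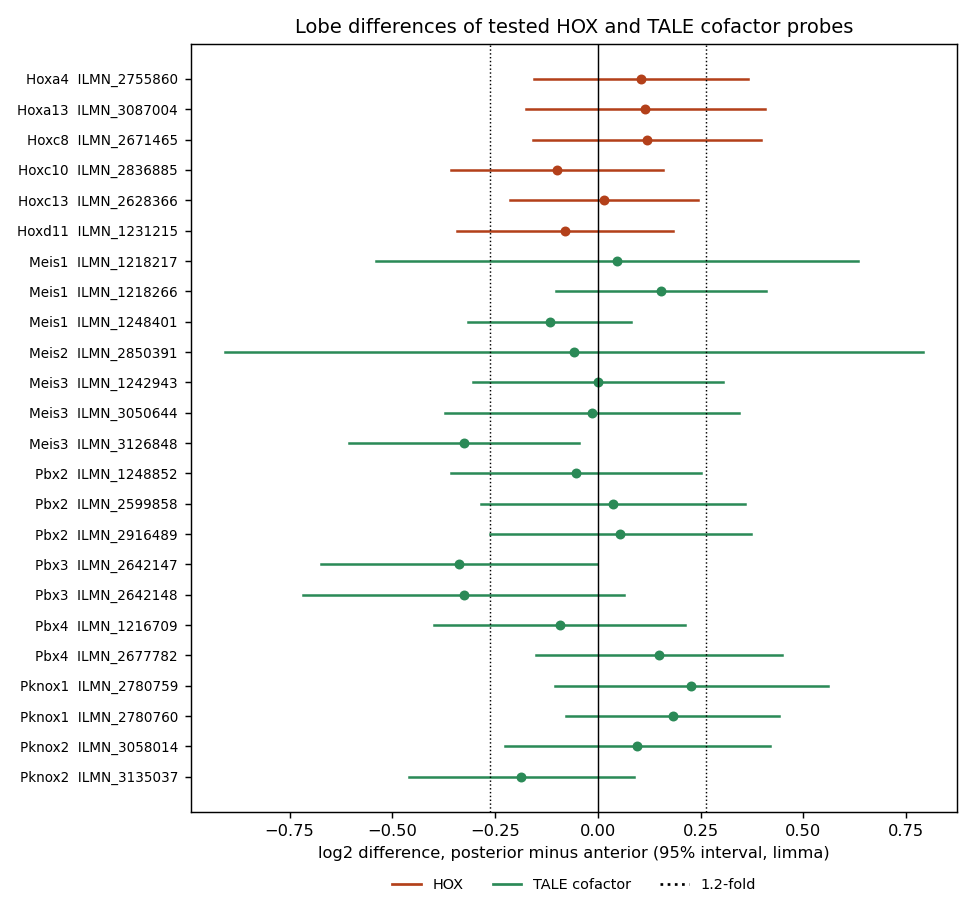
Log2 difference, posterior minus anterior lobe (horizontal axis), with its 95% interval from limma, for the 6 tested HOX probes and 18 of the 22 tested probes of the TALE cofactors, the others being of genes not reported here. Dotted lines mark 1.2-fold. All 6 HOX intervals hold 0. The intervals of the Meis3 probe ILMN_3126848 and the Pbx3 probe ILMN_2642147 lie below 0, and neither probe passed the adjusted p.

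Over all 57 HOX probes, the median absolute log2 difference was 0.090 between the lobe means, 0.090 between the anterior arrays and 0.092 between the posterior arrays. Over all probes of the chip these values were 0.084, 0.114 and 0.092, and over those detected on no array 0.068, 0.095 and 0.092. A lobe difference is one of 2-array means and a replicate difference one of single arrays, so their sizes are not directly comparable. Both posterior values were above both anterior values for 14 of the 57 probes, against 18.9% of the chip, and below them for 8, against 19.4%. Among the 6 tested probes the posterior values were both above for 1, Hoxa13 (21.1% of all tested probes) and both below for 0 (21.5%).

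Each of the 9 genes of HOX cofactors of the TALE class had a probe detected on all 4 arrays. PBX proteins raise the DNA selectivity of HOX proteins, and MEIS and PKNOX proteins bind PBX and bring it into the nucleus. Of their 30 probes, 22 (73.3%) were detected on all 4 arrays, against 44% of the chip, and 8 on none, against 49.4%. Of the 22, none was higher in posterior lobes by the criterion and 2 were lower, against 3.3% and 5% of all tested probes. None of the 22 passed the adjusted p. The Meis3 probe ILMN_3126848 had intensities of 387.2 and 309.5 in the anterior and 274.8 and 272.8 in the posterior lobes, a log2 difference of -0.33 with an adjusted p of 0.44 by limma. The other 2 Meis3 probes had differences of 0.00 and -0.01. The Pbx3 probe ILMN_2642147 had 538.5 and 515.5 in the anterior and 378.1 and 447.4 in the posterior lobes, a log2 difference of -0.34 with an adjusted p of 0.49 by limma. A second detected Pbx3 probe (ILMN_2642148) had a difference of -0.33 and did not pass the criterion.

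Of 12 upstream regulators of HOX genes in the hindbrain, 5 were detected on all 4 arrays and 5 on none. Over all symbols on the chip, 46.8% were detected on all 4 arrays and 14462 of 30854 on none. The 5 detected were Egr2, which turns on Hoxa2 and Hoxb2 in rhombomeres 3 and 5, Gbx2, needed for the anterior hindbrain, the retinoic acid receptors Rarb and Rarg, and Cyp26b1, which breaks down retinoic acid. Cdx2, Cdx4, Rara and Cyp26a1 were among those detected on no array. One Rarb probe (ILMN_2886828), of 7 tested probes in the list, was higher in posterior lobes by the criterion, against 3.3% of all tested probes. Its intensities were 302.7 and 322.6 in the anterior and 388.9 and 416.3 in the posterior lobes, a log2 difference of 0.38 with an adjusted p of 0.49 by limma. Another Rarb probe (ILMN_2617194) had a difference of 0.01.

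Of 20 Polycomb group genes, 15 were detected on all 4 arrays, against 46.8% of all symbols on the chip. The other 5, Jarid2, Phc3, Phf1 and Rnf2 among them, were detected on none. One Ezh2 probe (ILMN_1234171), for the enzyme that methylates histone H3 at lysine 27, was higher in posterior lobes by the criterion. It was 1 of 22 tested probes of the group, against 3.3% of all tested probes. Its log2 difference was 0.30 with an adjusted p of 0.31 by limma, and a second Ezh2 probe (ILMN_2988572) had a difference of 0.08. Of 11 Trithorax group genes and H3K27 demethylases, 10 were detected on all 4 arrays, and none of the 20 tested probes passed the criterion.

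Genes that flank the HOX clusters were also counted. Of the 3 nearest genes on each side of each cluster, 18 had a probe and 13 were detected on all 4 arrays. Over all symbols on the chip this share was 46.8%. In a list of 12 neighbours chosen by name, 7 were detected on all 4 arrays and 4 on none, and none of their 8 tested probes passed the criterion. Skap2, which flanks the A cluster, had intensities of 2170.7, 1795.9, 1561.8 and 1763.8, in the order anterior replicates 1 and 2 and posterior replicates 1 and 2. Evx1, a homeobox gene just beyond Hoxa13, was detected on 2 arrays. Both immediate neighbours of the B cluster, Ttll6 and Skap1, were detected on no array. On the C cluster's flanks Calcoco1 and Smug1 were detected on all 4 arrays. On the D cluster's, Mtx2 was and Evx2 was not.

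Homeobox genes outside the HOX clusters, 111 genes with 181 probes, gave 34 genes (30.6%) detected on all 4 arrays, against 46.8% of all symbols. By the criterion 6 of their 53 tested probes were higher in posterior lobes and 6 lower, against 3.3% and 5% of all tested probes. The probes of Otx2 and Tlx3 passed the adjusted p. The 6 higher probes were of Alx4, Dlx3, Lhx5, Msx1, Otx2 and Tlx3. The 6 lower ones were of Barx2, Irx2, Lhx3, Otx1 and En1, which had 2. Only 6 HOX probes were tested, too few to compare how often the 2 sets passed, and no such comparison was run.

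**Figure D5:**
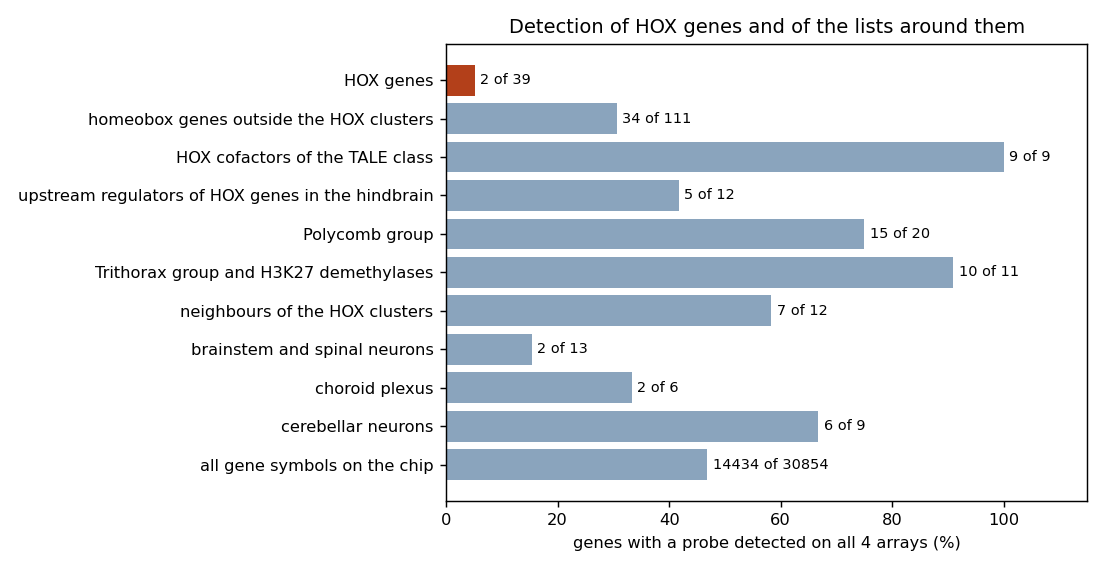
Share of genes with a probe detected on all 4 arrays (horizontal axis, percent) for the HOX genes and the lists around them, with the counts beside the bars. The HOX genes, at 2 of 39, have the lowest share of the lists drawn, against 46.8% of all symbols, and the TALE cofactors have 9 of 9.

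The labelled tissue was checked against its markers. Of 9 genes of cerebellar neurons, 6 were detected on all 4 arrays, against 46.8% of all symbols on the chip. They were Pax6, Zic1, Neurod1 and Barhl1 of the granule lineage, En2 of the early cerebellum and Pcp2 of Purkinje cells. Atoh1, the granule progenitor factor, and the Purkinje cell genes Calb1 and Car8 were detected on no array, with intensities between 59.4 and 76.8. These genes are known to be expressed in the cerebellum at this age. An undetected HOX probe is therefore a probe below the limit, and not a measurement that the transcript was absent.

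HOX-expressing tissue near the cerebellum could enter a dissection, so markers of other cells are given beside the HOX values. Of 13 genes of brainstem and spinal neurons, 4 had a probe detected on at least 2 arrays. Slc5a7 and Prph were detected on all 4 arrays and Slc6a2 on 2. The 9 genes Phox2a, Tph2, Slc6a4, Fev, Chat, Slc18a3, Isl1, Dbh and Mnx1 were detected on none, against 14462 of 30854 symbols on the chip. The summed intensity of the list was 2399.6 and 2000.0 in the anterior and 2054.6 and 2009.0 in the posterior lobes. That of the 57 HOX probes was 5136.8 and 4552.4 in the anterior and 4919.4 and 5155.0 in the posterior lobes. The sums here and below are of intensities without normalization or background subtraction. Of the probes in these 2 sums, 17 of 21 and 51 of 57 were detected on no array, so the sums do not measure abundance. Over the whole chip the sums were 4.82e+07 and 4.16e+07 in the anterior and 4.40e+07 and 4.55e+07 in the posterior lobes. By the criterion 2 of the list's 4 tested probes were lower in posterior lobes, against 5% of all tested probes. With 4 tested probes these shares cannot be compared. Slc5a7, the choline transporter, had a log2 difference of -0.44 and one probe of Slc6a2, the noradrenaline transporter, -0.42. Their adjusted p were 0.39 and 0.38 by limma. The Slc6a2 probe was detected on 2 arrays, the fewest that the filter admits, so a probe bright in a single lobe could pass the filter.

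Choroid plexus genes, 6 in all with 2 detected on all 4 arrays, summed to 1881.0 and 11243.9 in the anterior and 1402.4 and 5045.5 in the posterior lobes. They were thus high on both replicate 2 arrays. In each lobe the replicate 2 array also had the higher count of detected HOX probes, and the probes that differed lay near the limit. The median HOX score was 0.625 on anterior replicate 1 and 0.525 on anterior replicate 2. In the posterior lobes it was 0.600 and 0.621. A link between the choroid plexus sum and the HOX values was not tested. On the replicate 2 arrays most of the choroid plexus sum was Ttr, with intensities of 9501.9 (anterior) and 3777.6 (posterior). Clic6 was lower in posterior lobes by the criterion, with a log2 difference of -0.89. Meningeal fibroblast genes summed to 16999.5 and 16418.3 in the anterior and 23176.7 and 27486.2 in the posterior lobes, with 6 of 9 tested probes higher by the criterion. Genes of the oligodendrocyte lineage had 18 of 23 tested probes lower by the criterion and 1 higher, with a median log2 difference of -0.99. Of 8 tested endothelial probes 1 was higher. Over all tested probes 3.3% were higher and 5% lower by the criterion. The adjusted p was passed by 5 oligodendrocyte, 1 meningeal and 0 endothelial probes. Of 6 blood cell genes 3 were detected on all 4 arrays, and Ptprc and Cd3e were detected on none. The part of these cells in the HOX values was not tested. In such bulk samples fewer cells of a type and less RNA per cell cannot be told apart.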

How the data were processed

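For each array the authors deposited the mean bead intensity, bead SD, bead number and a detection score (a fraction) of 45281 probes, exported from GenomeStudio without normalization or background subtraction. Another 16 columns were not used. In R 4.3.3 quantile normalization was applied across the 4 arrays, then a floor of 1 and a log2 scale. The lobes were compared (posterior minus anterior) for probes whose score exceeded 0.95 on at least 2 arrays, by limma 3.58.1 (lmFit, eBayes with an intensity trend), two-sided, with Benjamini-Hochberg adjustment over all tested probes. The number of arrays limits the precision. All 39 HOX symbols matched RefSeq (GRCm38.p6), used for names, neighbours and promoters. HOX probes were named by detection class, with values on every array for those detected on all 4, and list genes where a probe passed the criterion or a defining marker was undetected. Each probe was reported separately, and some genes are not reported here. The members and lists were chosen with earlier results of these data known. Alternatives were neqc (offset 16), no normalization, a common 75th percentile, cyclic loess, no filter, detection on all 4 arrays, a score over 0.99, no trend, the methods' t-test, a replicate block and leaving out each array.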

Additional observations from a re-analysis of the deposited data

How the results depend on the processing

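No HOX probe passed the adjusted p under the 14 alternatives run, under which 0 to 2538 probes of the chip did. In 3 of them (the methods' t-test and leaving out either posterior array) no probe of the chip passed, so these bear on nothing here. In each alternative with all 4 arrays and a filter on dim probes, 0 HOX probes passed the study's criterion. Few were fitted in some of them, 1 at a score over 0.99 and 2 with detection on all 4 arrays. Without the filter 1 of 57 HOX probes passed the criterion, against 2496 of 45281 probes of the chip. That probe was of Hoxa9 (ILMN_2772762), detected on no array, with an unadjusted p of 0.020 and an adjusted p of 0.55 by limma. The number of HOX probes detected on all arrays, 2 of 57, became 1 at a score over 0.99 and ranged from 2 to 4 when each array was left out, with 4 without posterior replicate 1, when Hoxc10 and Hoxc13 joined Hoxa4 and Hoxa13. The median difference of the tested HOX probes, 0.06, ranged from 0.0083 to 0.096 when each array was left out. The difference of Hoxc13 ranged from -0.030 (without posterior replicate 2) to 0.060 when each array was left out. Among the fits that left out an array, Hoxc8 and Hoxd11 passed the filter only without anterior replicate 1 or without posterior replicate 1. In that order their differences were -0.0024 and 0.13 for Hoxc8, and -0.13 and 0.012 for Hoxd11. Hoxa4, Hoxa13 and Hoxc10 kept their sign wherever they were fitted.

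With the replicate number as a block, 0 HOX probes passed either threshold, while 588 probes of the chip passed the adjusted p, against 23 without the block. The differences between replicates 1 and 2 correlated between the lobes at r = 0.46 over the tested probes, but the labels do not pair the samples and there are only 2 pairs.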
